A study of Mus musculus with 12 samples.

Results

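The data concern 37 aminoacyl-tRNA synthetase genes of mouse embryonic fibroblasts (MEFs), chosen by gene symbol from the 24062 rows of an RNA-Seq count table by a rule that reads symbols only. Symbols without the suffix 2 were taken as cytosolic or dual (20 genes) and those with it as mitochondrial (16 genes), and Tarsl2, whose 2 is not that suffix, was kept apart. All 37 were in the table and all 37 passed the filter on low counts that left 12154 genes for testing. The MEFs expressed shRenilla, the control hairpin, or shBruce#1, a hairpin against Birc6, the gene for the giant ubiquitin ligase BRUCE. Each line was either grown in full medium (FM) or kept for 2 h in medium without serum and amino acids (Starv), with 3 replicates in each of the 4 conditions. Because 1 hairpin stood for each genotype, the knockdown and any other difference between the lines cannot be told apart. Removal of serum, of amino acids and of any other component that differed between the media cannot be told apart either. No label says that replicates came from separate cultures, so p-values measure only the spread between these 12 libraries.

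Aminoacyl-tRNA synthetases attach amino acids to their matching tRNAs, and so supply both the cytosolic and the mitochondrial ribosome. When an amino acid runs short, uncharged tRNA activates the kinase GCN2, which phosphorylates eIF2alpha and favours translation of the transcription factor ATF4. ATF4 binds amino acid response elements in stress genes, among them those for several cytosolic synthetases. Cytosolic and mitochondrial enzymes are encoded by separate nuclear genes for most amino acids, while Gars and Kars each serve both compartments.

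Promoter sequences are shown because the comparisons below concern genes among which targets of this pathway are known. RefSeq promoter windows on GRCm38.p6, from 250 bases before to 50 bases after the transcript start, were at hand for 28 of the 37 genes, 1 of them (Mars) under the symbol Mars1. They were searched on both strands for the amino acid response element core TGATGNAA, where N is any base, which reads TTNCATCA on the other strand. It occurred in the windows of 5 of the 28 genes (17.9%), compared with 3.97% of all 32851 windows in the RefSeq table. The first share counts genes and the second counts windows, and a gene can hold more than 1 window. Capitals mark the match, and each stretch is written along the strand of its gene.
Aars: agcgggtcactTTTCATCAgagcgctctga
Gars: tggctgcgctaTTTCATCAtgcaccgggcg
Iars: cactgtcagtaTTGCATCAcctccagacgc
Tars: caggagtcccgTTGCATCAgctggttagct
Yars: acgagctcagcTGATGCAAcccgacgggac

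With the first base of the RefSeq transcript counted as 1, the Aars stretch lies at chr8:111033840-111033869 on the plus strand, with its match beginning at 10. The Gars stretch (chr6:55037960-55037989, plus strand) has its match at -30 and the Iars stretch (chr13:49682126-49682155, plus strand) at 8. For Tars (chr15:11399655-11399684, minus strand) it begins at -15, and for Yars (chr4:129189895-129189924, plus strand) at 4. Of the matches printed here, those of Gars and Tars precede this RefSeq start, and those of Aars, Iars and Yars lie just after it. GENCODE begins the Aars gene at chr8:111033144 and the Yars gene at chr4:129189760, further upstream of these matches. A match describes the letters of the window and does not show that a factor binds there.

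Depth ran from 7717265 to 18510540 counts per library. Birc6, which checks the hairpin, had normalized counts (counts scaled to a common library size) of 4682, 3273 and 5061 in shRenilla FM and 4759, 4712 and 2787 in shRenilla Starv. The shBruce libraries held 1207, 1265 and 1390 in FM and 1175, 703 and 1226 in Starv, so the lines did not overlap. Its log2 fold change between the lines was -1.75 in FM (edgeR adjusted p = 0.0627) and -1.98 in Starv (edgeR adjusted p = 0.0186). Of 10 fibroblast markers 8 passed the filter, with a summed normalized count of 119223 to 173629 per library, whereas Thy1 and Lum had 0 to 3 counts. Sums of the other marker lists were 242 to 890 for epithelial genes (nearly all Krt19), 7 to 64 for endothelial, 72 to 144 for leukocyte, 109 to 641 for pluripotent (nearly all Sox2) and 0 to 30 for muscle genes. Zfp42 had 0 counts in every library. The epithelial and pluripotent sums moved with the medium, from 633 to 782 and 363 to 415 in shRenilla FM to 242 to 323 and 109 to 138 in shRenilla Starv. In shBruce they were 796 to 890 and 283 to 641 in FM and 299 to 640 and 120 to 330 in Starv, where the pluripotent sums of the media overlapped. Their part in the results was not tested. The shBruce Starv libraries differed most among themselves, with a chi-square per degree of freedom of 48.4 between replicates 1 and 2, 95.2 between 1 and 3 and 48 between 2 and 3, where the 3 other conditions reached 27.6. Replicate 1 of that condition was also the shallowest of all libraries (7717265 counts). Values without it are given beside many of the synthetase results it moved, but not for the genes around the synthetases.

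Cytosolic synthetase transcripts were far more abundant than mitochondrial ones. Per kilobase of annotated exon, mean normalized counts over the 12 libraries ran from 393 for Wars, the tryptophanyl enzyme, to 1853 for Gars, the glycyl enzyme, with a median of 1016 over the 20 cytosolic genes. The 16 mitochondrial genes ran from 19.1 for Nars2 to 237 for Yars2 (median 60.6), so that their highest member lay below the lowest cytosolic one. Tarsl2, a threonyl-tRNA synthetase paralogue, was at 35.4 per kilobase, within the mitochondrial range. With the longest annotated transcript as the length, the ranges were 471 to 2879 and 19.4 to 336 and again did not overlap.

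As a share of all counts in a library, the 20 cytosolic genes together made up 0.577%, 0.614% and 0.578% in shRenilla FM and 0.752%, 0.765% and 0.804% in shRenilla Starv. In shBruce MEFs the shares were 0.628%, 0.648% and 0.672% in FM and 0.723%, 0.837% and 0.834% in Starv. Every Starv library thus lay above every FM library, whichever line it came from. The mitochondrial share averaged 0.0502% ± 0.00064 in shRenilla FM, 0.054% ± 0.00176 in shRenilla Starv, 0.0513% ± 0.00143 in shBruce FM and 0.0513% ± 0.00679 in shBruce Starv (SD, n = 3). The ratio of the cytosolic to the mitochondrial sum was 11.7 ± 0.329 in shRenilla FM and 14.3 ± 0.0451 in shRenilla Starv, and 12.7 ± 0.752 and 15.6 ± 0.866 in the same media in shBruce. These shares are of raw counts, and normalization factors were 0.967 to 0.979 in shRenilla FM and 1.035 to 1.051 in shRenilla Starv. Normalized cytosolic sums were 87165, 91615 and 87100 in shRenilla FM and 105136, 108033 and 111750 in Starv, a smaller relative rise than the shares give. Normalized mitochondrial sums were 7481, 7574 and 7603 against 7339, 7563 and 7771, which overlapped. All these sums are a description of the whole group and were not tested. In bulk RNA, a change in the mix of cells and a change in RNA per cell cannot be told apart.

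**Figure D1:**
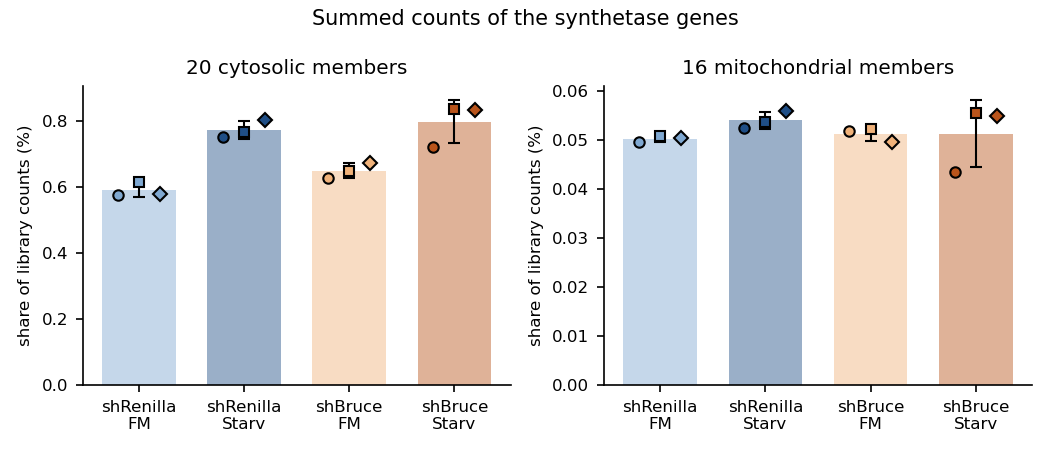
Share of each library's counts (%) taken by the 20 cytosolic (left) and 16 mitochondrial (right) synthetase genes, with bars for the mean, whiskers for the SD (n = 3) and symbols for replicates 1 (circle), 2 (square) and 3 (diamond). The cytosolic share is 0.752% or more in shRenilla Starv against at most 0.614% in shRenilla FM, while the mitochondrial share stays between 0.0435% and 0.0559% in all libraries. Shares are of raw counts, without normalization factors.

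To ask how the change of medium altered these transcripts in control cells, Starv was compared with FM in shRenilla MEFs. Of the 20 cytosolic genes, 10 (50%) passed edgeR's quasi-likelihood test at an adjusted p under 0.05, 9 higher and 1 lower in Starv. Over all genes tested, 17.0% passed, 9.69% higher and 7.27% lower. The 9 that rose were Aars, Cars, Sars, Iars, Gars, Lars, Tars, Nars and Yars, with log2 fold changes of 0.86 down to 0.38. Farsa, the catalytic subunit of the phenylalanyl enzyme, fell by 0.49 on the log2 scale (edgeR adjusted p = 0.038), while Farsb, its partner subunit, had a value of -0.04. The Farsa call was lost in 8 of 23 alternative fits, 6 of which left out 1 library (edgeR adjusted p up to 0.14). The median over the 20 genes was 0.26, compared with -0.01 over all genes. In 15 of the 20 the libraries of the media did not overlap, which held for 52.4% of all genes, and the exact permutation test then gives its smallest two-sided p, 0.1.

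Aars, which charges alanine tRNA and whose promoter window holds the element core, changed most among the cytosolic genes in shRenilla MEFs. Its normalized counts were 6128, 6920 and 6282 in shRenilla FM and 11410, 11640 and 12150 in shRenilla Starv. In shBruce MEFs they were 6785, 7713 and 8700 in FM and 9249, 12680 and 13700 in Starv. All Starv libraries exceeded all FM libraries, and shBruce Starv replicate 1 was the lowest of the starved ones. The log2 fold change was 0.86 ± 0.15 (SE, edgeR adjusted p = 0.00157) in shRenilla and 0.62 ± 0.15 in shBruce (edgeR adjusted p = 0.00932). Without shBruce Starv replicate 1 the shBruce value was 0.76 (edgeR adjusted p = 0.00066), and without shBruce FM replicate 1 it was 0.53 and missed the threshold (edgeR adjusted p = 0.0514).

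Cars, the cysteinyl enzyme, rose in both lines. It was at 1794, 1896 and 1793 normalized counts in shRenilla FM and at 2800, 2737 and 3159 in shRenilla Starv. The shBruce libraries held 2232, 2320 and 2970 in FM and 5133, 3840 and 3354 in Starv. The media did not overlap in either line, and replicate 1 was the highest shBruce Starv library here, where it had been the lowest for Aars. Log2 fold changes were 0.67 ± 0.16 in shRenilla (edgeR adjusted p = 0.0117) and 0.71 ± 0.16 in shBruce (edgeR adjusted p = 0.00632). Without replicate 1 of shBruce Starv the latter was 0.51 (0.0138, edgeR adjusted p). Without shRenilla FM replicate 1 or 3, the shRenilla call was lost at adjusted p = 0.0507 and 0.051 (edgeR).

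Sars, the seryl enzyme, gave close values in the lines. Its normalized counts were 5458, 6046 and 5395 in shRenilla FM against 7918, 7923 and 9416 in Starv, and 6027, 6698 and 7864 in shBruce FM against 11070, 10460 and 9616 in Starv. Within each line all starved libraries were higher. The log2 fold changes were 0.58 ± 0.13 (edgeR adjusted p = 0.00773) and 0.60 ± 0.13 (edgeR adjusted p = 0.00514), and no left-out library ended either call.

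Gars, Iars and Lars rose in shRenilla MEFs and did not pass the test in shBruce MEFs. Gars had 4424, 4574 and 4209 normalized counts in shRenilla FM and 6126, 6390 and 6948 in Starv, a log2 fold change of 0.56 ± 0.12 (edgeR adjusted p = 0.00669). In shBruce it had 5152, 5146 and 6288 in FM and 5987, 7265 and 6831 in Starv, which overlapped, with a log2 fold change of 0.28 (edgeR adjusted p = 0.117). FM levels of Gars were higher in every shBruce library than in any shRenilla library.

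Iars, the isoleucyl enzyme and a member of the multisynthetase complex, was at 5910, 5538 and 6055 in shRenilla FM and at 8942, 9312 and 7640 in shRenilla Starv. The shBruce libraries held 5409, 5327 and 5679 in FM and 4669, 5557 and 7879 in Starv, so in that condition replicate 3 lay above the FM range and replicate 1 below it. The log2 fold changes were 0.57 ± 0.16 (edgeR adjusted p = 0.0314) and 0.14 ± 0.16 (edgeR adjusted p = 0.562). Without shBruce Starv replicate 1 the shBruce value was 0.28 (edgeR adjusted p = 0.17). The shRenilla call was lost without any FM replicate or Starv replicate 1 or 2 of that line (edgeR adjusted p = 0.0817 to 0.125).

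Lars, the leucyl enzyme of the same complex, had 4504, 4518 and 4533 normalized counts in shRenilla FM and 6116, 6692 and 6393 in shRenilla Starv. Its shBruce libraries held 4616, 4642 and 5460 in FM and 4984, 6481 and 6414 in Starv. Replicate 1 was the starved library that overlapped with FM. The log2 fold changes were 0.50 ± 0.12 (edgeR adjusted p = 0.0142) and 0.28 ± 0.12 (edgeR adjusted p = 0.12). The first of these missed the threshold without any shRenilla FM replicate or without Starv replicate 2 (edgeR adjusted p = 0.0579 to 0.0697). Without shBruce Starv replicate 1, Lars (0.38, edgeR adjusted p = 0.0155), Gars (0.34, 0.0445) and Tars (0.38, 0.00602) all passed in shBruce MEFs.

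**Figure D2:**
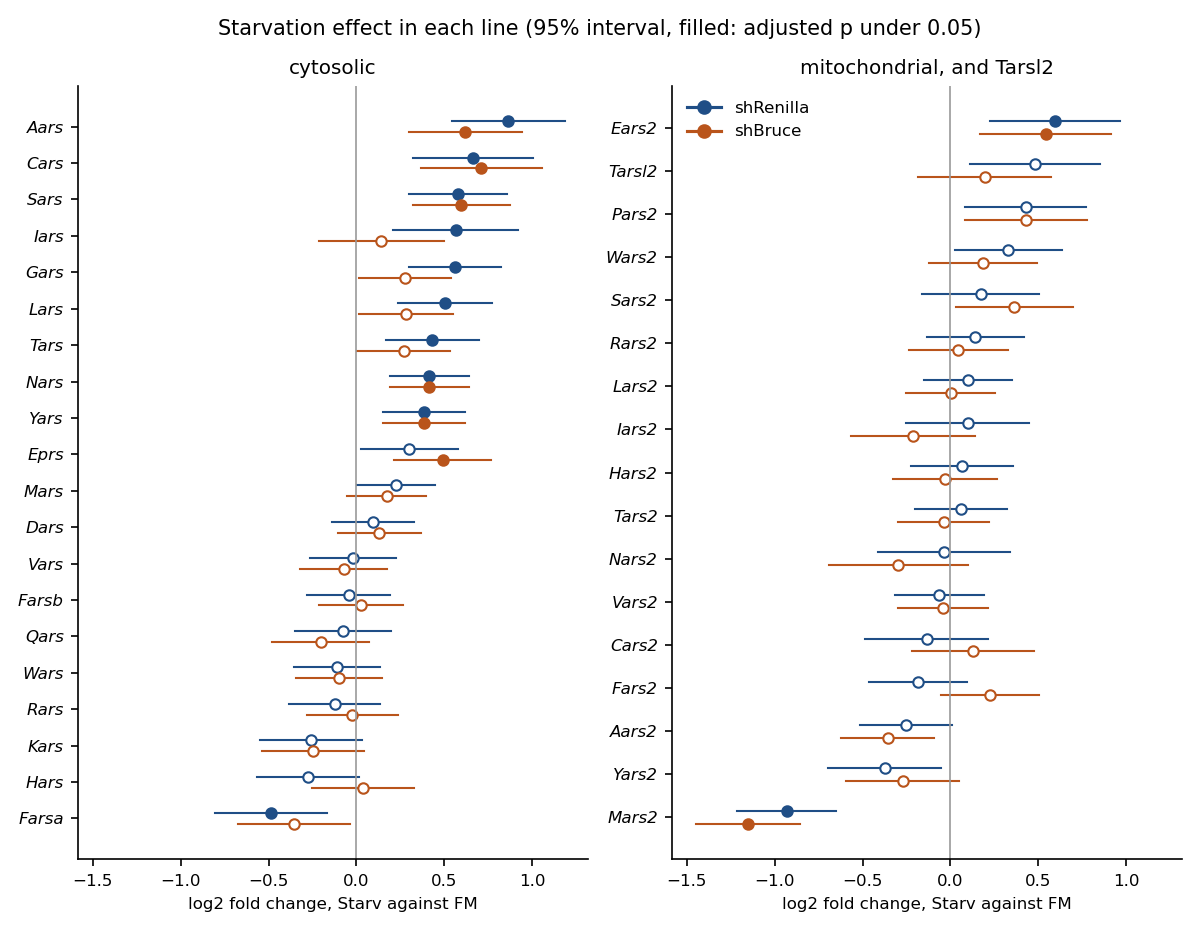
Log2 fold change of Starv against FM for the 20 cytosolic genes (left) and the 16 mitochondrial genes with Tarsl2 (right), in shRenilla (blue) and shBruce MEFs (orange). Lines are 95% confidence intervals, filled points passed at an adjusted p under 0.05, and genes are sorted by the shRenilla value, from Aars at 0.86 to Farsa at -0.49 on the left and from Ears2 at 0.60 to Mars2 at -0.93 on the right.

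In shBruce MEFs, 6 of the 20 cytosolic genes passed, all higher in Starv, namely Aars, Cars, Sars, Eprs, Nars and Yars. That is 30% of the cytosolic genes, compared with 23.0% of all genes (12.4% higher and 10.6% lower). Eprs, the glutamyl-prolyl enzyme, was the gene that passed in shBruce alone, with 0.49 ± 0.13 (edgeR adjusted p = 0.0148) against 0.30 ± 0.13 in shRenilla (edgeR adjusted p = 0.127). Its shBruce Starv libraries held 15060, 11120 and 10850 normalized counts, and without replicate 1 it had 0.31 in both lines and passed in both (edgeR adjusted p = 0.0204 in shBruce and 0.0112 in shRenilla). Nars rose by 0.41 in both lines and Yars by 0.38 in both. The median over the 20 genes was 0.16, with 0.02 over all genes, and in 6 of them the libraries of the media did not overlap (30.9% of all genes). Passing in 1 line and not in the other does not show that the lines differ, and the test of that difference is given below.

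The number of calls depended on single libraries. In shRenilla, 3, 4 and 3 cytosolic genes passed without FM replicate 1, 2 and 3, and 6, 4 and 7 without Starv replicate 1, 2 and 3, with Aars, Gars and Sars in each of these counts. In shBruce, 2 passed without FM replicate 1 and 3 without FM replicate 2, neither of which held Eprs, and 9 without Starv replicate 1. When the shBruce FM and Starv libraries were fitted on their own, 0 cytosolic genes passed in edgeR, with 6 at an unadjusted p under 0.05, whereas DESeq2 and limma-voom on all libraries each gave 6.

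Grouped by structure, 2 of the 8 genes of the multisynthetase complex passed in shRenilla (Iars and Lars), compared with 8 of the 12 cytosolic genes outside it. The median log2 fold change was 0.16 in the complex and 0.40 outside it, and 0.14 and 0.27 in shBruce, where 1 of 8 (Eprs) and 5 of 12 passed. Kars, Qars and Rars of the complex had values of -0.26, -0.08 and -0.12 in shRenilla and did not pass. By catalytic fold, 4 of 9 class I and 6 of 10 class II enzymes passed in shRenilla, with medians of 0.23 and 0.25, and 2 of 9 and 3 of 10 passed in shBruce. The shares of all genes that passed were 17.0% in shRenilla and 23.0% in shBruce, and in shBruce both the complex and class I lay below that share. No difference between these subgroups was tested.

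All 5 genes with the element core in their promoter window passed as higher in shRenilla Starv, with log2 fold changes from 0.38 to 0.86. Of the 23 genes whose window lacked it, 2 were higher (Sars and Ears2) and 2 lower (Farsa and Mars2). Over all genes tested, 9.69% were higher in Starv in shRenilla and 12.4% in shBruce. The 5 genes with the core were all cytosolic or dual. Those without it held every mitochondrial gene with a window, so this split overlaps with that of cytosolic and mitochondrial genes. In shBruce, 2 of the 5 passed (Aars and Yars), with values from 0.14 to 0.62, and 3 of the 23 were higher (Sars, Eprs and Ears2) and 1 lower (Mars2). Gars and Tars passed as well without shBruce Starv replicate 1, which made 4 of the 5. Windows were not at hand for Cars, Hars, Lars, Nars, Rars, Vars, Wars, Hars2 and Pars2, so the split covers part of the family and was not tested. Among these, Cars, Lars and Nars also passed as higher in shRenilla Starv.

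Of the 16 mitochondrial genes, 2 passed in each line (12.5%), and these were Ears2, higher, and Mars2, lower. Both shares lay below the 17.0% and 23.0% of all genes. The median log2 fold change was 0.06 in shRenilla and -0.02 in shBruce. Libraries did not overlap between the media in 8 of the 16 genes in shRenilla (52.4% of all genes) and in 4 of 16 in shBruce (30.9% of all genes).

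Mars2, the mitochondrial methionyl enzyme, changed more than any other of the 37 genes, and in the opposite direction to most of the cytosolic calls. Its normalized counts were 343, 297 and 347 in shRenilla FM and 179.6, 171 and 166 in shRenilla Starv. In shBruce they were 294, 246 and 238 in FM and 115, 113 and 121 in Starv. The 4 conditions did not overlap at all, in the order shRenilla FM, shBruce FM, shRenilla Starv and shBruce Starv from high to low. The log2 fold change upon starvation was -0.93 ± 0.13 in shRenilla (edgeR adjusted p = 0.000392) and -1.15 ± 0.14 in shBruce (edgeR adjusted p = 9.74e-05), which left 0.524 and 0.449 of the FM level. Both calls held in every one of 23 alternatives, with ranges of -1.18 to -0.85 and -1.22 to -1.06. Mars, the cytosolic methionyl enzyme, had values of 0.23 and 0.17 and did not pass.

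Ears2, the mitochondrial glutamyl enzyme, is a gene of low counts, at 88.2, 130.1 and 126 in shRenilla FM and 162, 162 and 197 in Starv. The shBruce libraries held 124, 149.7 and 139.8 in FM and 194, 189 and 219 in Starv. The media did not overlap in either line. The log2 fold changes were 0.60 ± 0.17 (edgeR adjusted p = 0.0301) and 0.54 ± 0.17 (edgeR adjusted p = 0.0378). Without shRenilla FM replicate 1, its lowest library, the shRenilla value was 0.43 and missed the threshold (edgeR adjusted p = 0.137), as it did without shRenilla FM replicate 3 or any Starv replicate of that line (0.0586 to 0.108). In shBruce it missed the threshold without each FM replicate (0.0637 to 0.131) and without Starv replicate 3 (0.0706), as well as without shRenilla FM replicate 3 or Starv replicate 1 or 2 (0.0545 to 0.0572).

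Beyond these calls, Pars2, the mitochondrial prolyl enzyme, had 0.43 in both lines (edgeR adjusted p = 0.0853 and 0.0735), with Starv libraries above FM libraries in each line. Aars2 and Yars2 had negative values in both lines, -0.25 and -0.36 for Aars2 and -0.37 and -0.27 for Yars2, and neither passed. Tarsl2 was at 237, 217 and 207 normalized counts in shRenilla FM and at 316, 325 and 281 in Starv, without overlap. In shBruce it was at 221, 176 and 205 in FM and at 169.6, 228 and 284 in Starv, which overlapped. Its log2 fold changes were 0.48 ± 0.17 (edgeR adjusted p = 0.0704) and 0.20 ± 0.18 (edgeR adjusted p = 0.446). Without shBruce Starv replicate 1 or 3 the shRenilla value was 0.49 and 0.48 and passed (edgeR adjusted p = 0.0174 and 0.0229). The shBruce value was 0.34 without shBruce Starv replicate 1 and did not pass (edgeR adjusted p = 0.124).

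**Figure D3:**
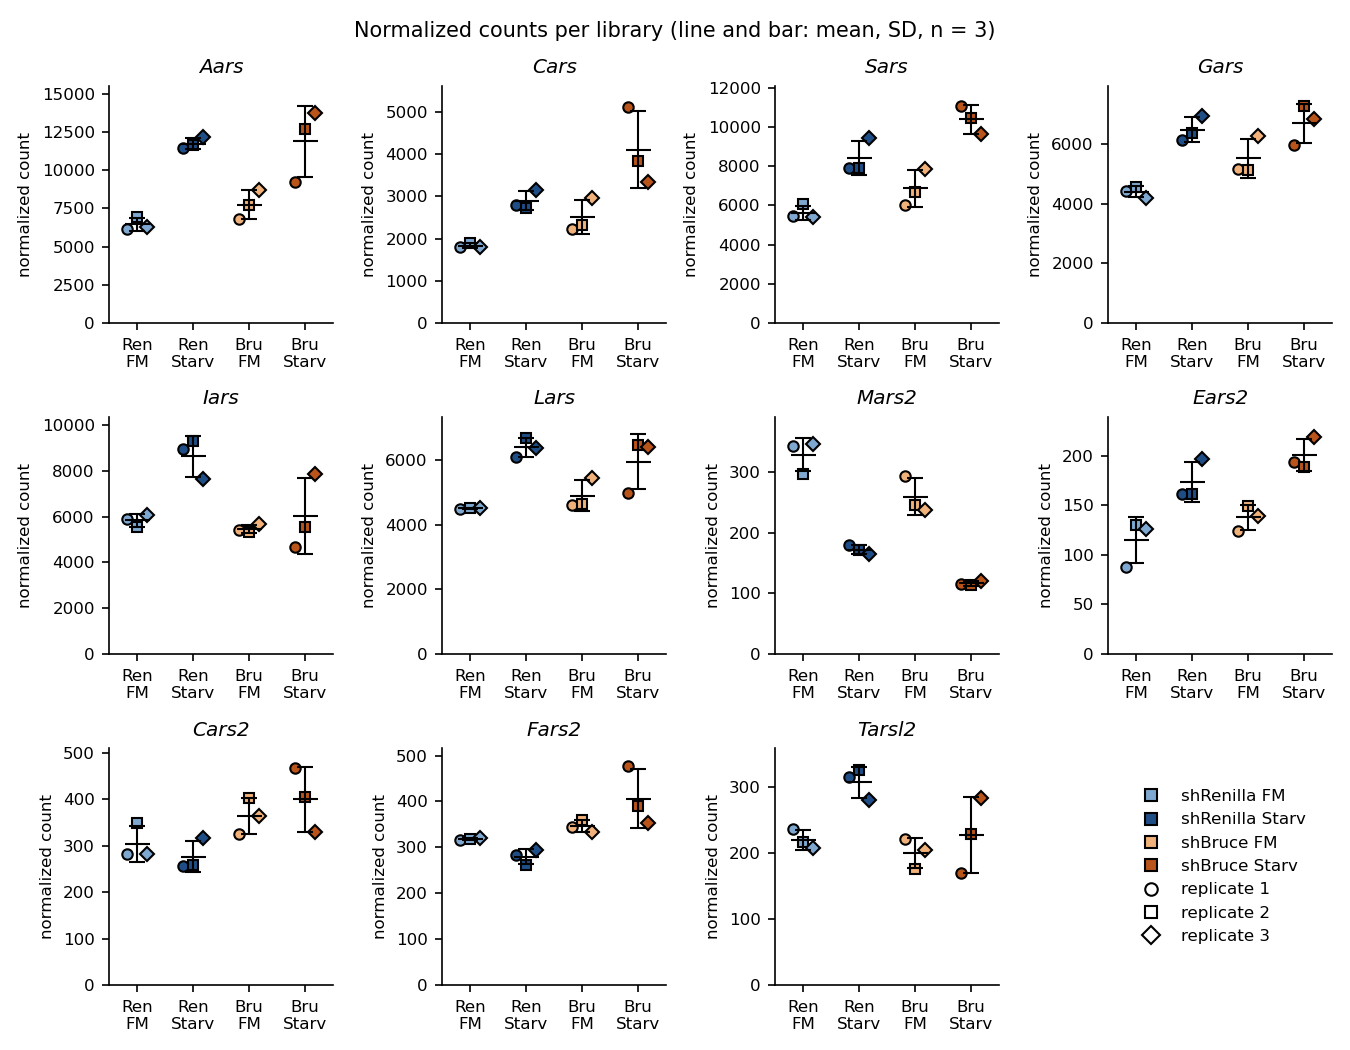
Normalized counts per library of the 11 genes whose values are given one by one, on axes that start at 0, with colours for the 4 conditions and symbols for the replicates. Horizontal marks and whiskers are the mean and SD (n = 3). Mars2 falls from 297 or more in shRenilla FM to at most 179.6 in Starv, while Aars rises from at most 6920 to at least 11410.

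Genes around the synthetases were counted in the same fit. Of 15 genes for amino acid sensing and the eIF2alpha pathway, 9 were higher in shRenilla Starv, led by Ddit3, the stress factor CHOP (2.84), Ppp1r15a, an eIF2alpha phosphatase subunit (1.61), and Cebpg (1.17). In shBruce, 10 of the 15 were higher, with Ddit3 at 3.45, Ppp1r15a at 1.83 and Cebpg at 1.19, and 2 lower, Eif2ak4, which encodes GCN2 (-0.52), and Eif2s1, which encodes eIF2alpha (-0.42). Eif2s1 held 1540, 2390 and 2091 normalized counts in shBruce Starv, lowest in replicate 1. Of 19 ATF4 targets other than synthetases, 16 rose in shRenilla and 13 in shBruce, with medians of 1.25 and 0.84. Over all genes tested, 9.69% were higher in Starv in shRenilla, and in shBruce 12.4% were higher and 10.6% lower. The largest values were those of Trib3 (4.16 and 3.92), Chac1 (3.62 and 3.41) and, in turn, Slc7a11 in shRenilla (3.12) and Sesn2 in shBruce (2.38). Sesn2 held 434, 747 and 1717 normalized counts in shBruce Starv, again lowest in replicate 1. The lowest values among the called targets were those of Slc7a5 (0.77 and 0.51), within the range of the synthetase calls.

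Of the 3 scaffold proteins of the multisynthetase complex, Eef1e1 fell in both lines (log2 fold changes of -1.07 and -1.03), and Aimp2 fell in shRenilla (-0.60). Elac1, a tRNA 3′-processing enzyme, rose in both lines (0.78 and 0.52). Apart from it, 1 of the 17 accessory tRNA genes rose in shRenilla, Dtd2, a D-aminoacyl-tRNA deacylase (0.56), and 1 fell in shBruce, Mtfmt, the mitochondrial methionyl-tRNA formyltransferase (-0.51). With 2 of 17 called in each line (11.8%), the accessory genes lay below the share of all genes, 17.0% and 23.0%. Of 9 mitochondrial translation factors, Mtrf1 rose in shRenilla (0.45), and Mtif3 rose (0.41) and Gfm1 fell (-0.55) in shBruce, also below those shares. Gfm1 held 916, 1388 and 1605 normalized counts in shBruce Starv, lowest in replicate 1. The 5 cytosolic elongation factor genes had medians of -0.18 and -0.08.

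Whether the knockdown itself went with other synthetase levels was asked by comparing shBruce with shRenilla MEFs in each medium. These comparisons share libraries with the starvation comparisons and are given beside them. In FM, 0 of the 37 genes passed in edgeR, as did 0% of all genes. Birc6 itself missed the threshold there (edgeR adjusted p = 0.0627), so this 0 does not show that synthetase levels were equal in the lines. At an unadjusted p under 0.05 there were 6 members and 1750 genes in all. DESeq2 and limma-voom also gave 0, and limma-voom with sample quality weights gave 12. The share of all genes that passed in that weighted fit is not given, so the 12 cannot be set against it. The smallest unadjusted p-values were those of Cars and Gars, whose values per library are given above. Their log2 fold changes were 0.46 ± 0.16 (edgeR adjusted p = 0.302) and 0.33 ± 0.12 (edgeR adjusted p = 0.303), with the lines not overlapping in either gene. The cytosolic median was 0.14 and the mitochondrial one 0.08, with 0.01 over all genes. The lines did not overlap in 12 of the 37 genes (33.4% of all genes).

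In Starv, 7 of the 37 genes (18.9%) passed between the lines, 5 higher and 2 lower in shBruce. This share lay below that of all genes, 23.9% (12.8% higher and 11.2% lower). The genes higher in shBruce were Fars2 (0.53), Cars2 (0.53), Cars (0.50), Sars2 (0.48) and Hars (0.47), which hold the mitochondrial phenylalanyl, cysteinyl and seryl enzymes and the cytosolic cysteinyl and histidyl ones. Without shBruce Starv replicate 1, Cars was at 0.30 (edgeR adjusted p = 0.132), Sars2 at 0.37 (edgeR adjusted p = 0.12) and Hars at 0.35 (edgeR adjusted p = 0.081), and none of them passed. Iars (-0.52) and Mars2 (-0.56) were lower. The lines did not overlap in 15 of the 37 genes, compared with 34.9% of all genes.

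Fars2 held 317, 318 and 319.9 normalized counts in shRenilla FM and 283, 261 and 294 in shRenilla Starv. In shBruce it held 345, 360.1 and 333 in FM and 476, 390.5 and 352 in Starv, above the shRenilla libraries of the same medium. Its Starv difference of 0.53 ± 0.13 (edgeR adjusted p = 0.0234) was 0.39 without shBruce Starv replicate 1 (edgeR adjusted p = 0.0562). Cars2 held 282, 348 and 281 in shRenilla FM, 255, 259 and 316 in shRenilla Starv, 325, 403 and 365 in shBruce FM and 468, 404 and 329 in shBruce Starv. The lines overlapped for it in FM and not in Starv. Its Starv difference of 0.53 ± 0.16 (edgeR adjusted p = 0.036) was 0.39 without that library (edgeR adjusted p = 0.111).

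The per-library values of Iars and Mars2 are given above. For Iars the lines overlapped in Starv, through shBruce replicate 3, and its difference of -0.52 ± 0.16 (edgeR adjusted p = 0.0399) was -0.38 without shBruce Starv replicate 1 (edgeR adjusted p = 0.0987). For Mars2 the lines did not overlap, and its difference of -0.56 ± 0.14 (edgeR adjusted p = 0.0234) stayed at -0.57 without that library (edgeR adjusted p = 0.0484). Mars2 was the 1 member that passed when it was left out. Without shRenilla Starv replicate 1 or 2, or shBruce Starv replicate 2, 0 members passed in edgeR, with 9, 8 and 11 at an unadjusted p under 0.05. There were 3 without shRenilla FM replicate 1 or 3, and 13 without shBruce Starv replicate 3. Fitting the Starv libraries alone also gave 0 in edgeR, with 9 at an unadjusted p under 0.05, while DESeq2 on all libraries gave 10 and limma-voom 7. Shares of all genes under these alternatives are not given, so their counts cannot be set against such a share.

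The relation of counts to transcript length varied between libraries, and the lines were apart in FM but overlapped in Starv. The slope of a library's log2 counts per 2-fold increase in transcript length, relative to the mean of all libraries, was -0.023 to 0.115 in shRenilla FM and 0.034 to 0.21 in shRenilla Starv. In shBruce it was -0.102 to -0.062 in FM and -0.229 to 0.038 in Starv. Mars2 has a single-exon transcript of 11294 bases, and the Sars2 transcript has 1868 bases. With each library's trends against length and GC content removed, the Starv difference between the lines was 0.08 for Mars2 (edgeR adjusted p = 0.772), a change of sign, and 0.00 for Sars2 (edgeR adjusted p = 0.984). It was 0.52 for Fars2 (edgeR adjusted p = 0.0355) and 0.71 for Eprs (edgeR adjusted p = 0.0323), the 2 members that then passed, while Cars (0.44), Cars2 (0.60), Hars (0.26) and Iars (-0.31) did not. With the trends left in, Eprs was at 0.28 and did not pass. Without shBruce Starv replicate 1 it was at 0.10, also with the trends left in (edgeR adjusted p = 0.451). The starvation effects of Mars2 and Aars kept their calls. With the trends removed Mars2 was at -1.18 and -1.20 and Aars at 0.83 and 0.67 in the lines, and 11 and 7 cytosolic genes passed. The added calls were lower in Starv, Hars in shRenilla (-0.285, edgeR adjusted p = 0.0432) and Kars in shBruce (-0.342, edgeR adjusted p = 0.0386). Cytosolic medians were then 0.19 in shRenilla and 0.15 in shBruce, with -0.05 and -0.03 over all genes.

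**Figure D4:**
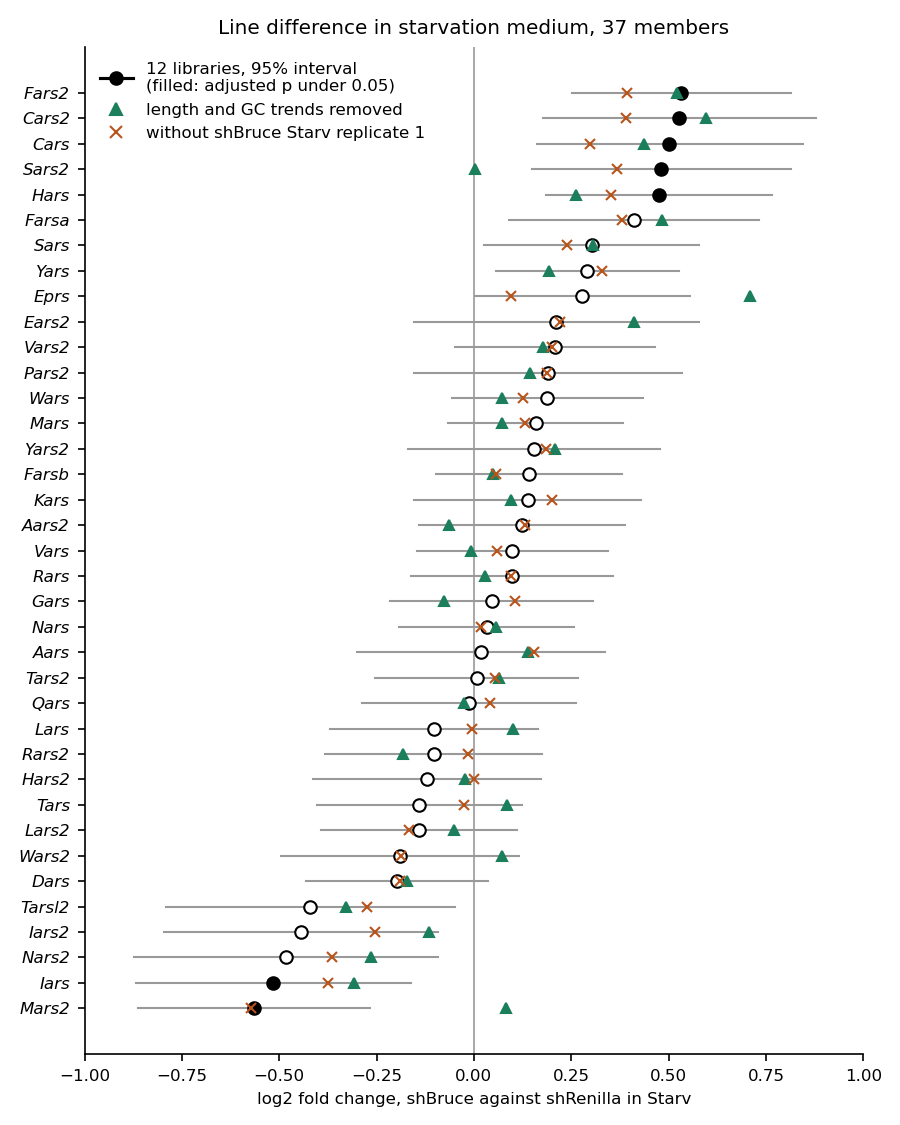
Log2 fold change of shBruce against shRenilla in Starv for the 37 genes, with 95% confidence intervals and filled circles for an adjusted p under 0.05. Triangles show the value with length and GC trends removed and crosses the value without shBruce Starv replicate 1. For Mars2 the triangle lies at 0.08 and the circle at -0.56, while for Fars2 both are near 0.52.

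The interaction of line and medium tests whether starvation acted differently in the lines. It passed for 0 of the 37 genes in edgeR, as for 0% of all genes, where the smallest adjusted p was 0.806 and 474 had an unadjusted p under 0.05. DESeq2 and limma-voom gave 0 members as well. Fars2 was the 1 member with an unadjusted p under 0.05 (0.41 ± 0.18, edgeR adjusted p = 0.806), followed by Iars (-0.42 ± 0.23, edgeR adjusted p = 0.806). Without shBruce Starv replicate 1 these were 0.26 and -0.29. The 95% confidence interval of the Aars interaction ran from -0.70 to 0.21 and that of Mars2 from -0.63 to 0.19. For Gars it ran from -0.65 to 0.09 and for Lars from -0.60 to 0.16, so a line difference of a size like their starvation effect in shRenilla lies within these intervals.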

How the data were processed

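Total RNA was extracted with TRIzol, treated with DNase, poly(A)-enriched and sequenced as single-end reads. After rRNA reads had been filtered out, the authors aligned to mm10 (STAR 2.4.0d) and obtained gene counts with HTSeq 0.5.4p3. Annotation and strand setting are not given in the sources used here, so reads of genes overlapping on opposite strands cannot be told apart. The deposited table holds raw counts. In it, 27 symbols turned into dates took 0.296% of counts, and 0 columns of sample values were left unused.

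Differences were fitted in edgeR 4.0.16 under R 4.3.3 (TMM normalization, filterByExpr, a mean per condition over 12 libraries, two-sided quasi-likelihood test, Benjamini-Hochberg adjustment over 12154 genes, level 0.05). The code was tested on simulated counts. Errors are the SD over 3 libraries or the SE of the fit, and intervals are at 95%. Positions and lengths came from GENCODE M21 and promoters from RefSeq, 1 stretch of which is not reported here. Alternatives used DESeq2 1.42.0, limma 3.58.1 (voom, the study's method), other normalizations and filters, fits of fewer libraries, a replicate block and removal of length and GC trends (spline with 4 degrees of freedom, 12050 genes).

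The rule for members reads symbols only, but the family, the gene lists and the tests were chosen with earlier results of these data known. Values per library are given for up to 8 members with the largest change among those passing in Starv against FM, up to 4 mitochondrial ones, up to 4 passing between lines, and Tarsl2. Other lists are given by counts with up to 3 genes per direction.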

Additional observations from a re-analysis of the deposited data

How the results depend on the processing

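Each count of members past the threshold was recomputed under 23 alternatives (22 for the interaction). Shares of all genes that passed are given for the main fit only, so the counts below cannot be set against such a share. Leaving out 1 library at a time, the cytosolic count in shRenilla (10) ranged from 3 to 11 and in shBruce (6) from 2 to 9, the mitochondrial counts (2 and 2) from 1 to 3 and from 1 to 4, and the count between lines in Starv (7) from 0 to 13. Between lines in FM and for the interaction it was 0 throughout. With sample quality weights in limma-voom, 7 and 1 mitochondrial members passed in shRenilla and shBruce, 12 members between lines in FM and 15 in Starv. Fitting only the groups compared gave 5 and 1 mitochondrial members, 0 cytosolic ones in shBruce and 0 between lines in Starv. Without the filter on low counts 1 mitochondrial member passed in each line. With length and GC trends removed, 4 mitochondrial members passed in shBruce and 2 members between lines in Starv, where Mars2 changed sign to 0.082 (0.076 with the replicate block added). These causes were not tested.

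The replicate numbers did not pair the libraries: deviations of same-numbered libraries correlated at -0.46 to 0.35, 5 of 18 pairs lay over 0.1, and 4 of 12 libraries correlated best with their own number. With the replicate block, the count between lines in Starv was 3, and 0 with trends removed as well. The other counts stayed within 1.5 times the main one. Precision was limited by the spread of 3 libraries a condition, not by counting alone, since chi-square values per degree of freedom between replicates ran from 2.21 to 95.2. Ears2, with 96 to 236 raw counts, and Mars2, with 57 to 420, were among the shallowest of the genes described library by library.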
